A study of Mus musculus with 32 samples.

Results

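Sox proteins are transcription factors that bind DNA through an HMG box, a domain that grips the minor groove and bends the helix. They fall into subgroups of close relatives: SoxB1 genes are known from neural stem and progenitor cells, SoxC genes from newly made neurons, SoxD genes from neurons and glia, SoxE genes from astrocytes and oligodendrocytes, and SoxF genes from blood vessels. The data described here are the levels of 10 Sox genes, of 38740 gene symbols in all: Sox2 and Sox3 (SoxB1), Sox4 and Sox11 (SoxC), Sox5 (SoxD), Sox8, Sox9 and Sox10 (SoxE), and Sox17 and Sox18 (SoxF). They were chosen by name, and each had 1 line in the authors' table.

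The tissue was the subventricular zone, a zone of the mouse forebrain where neurons are still made after birth, taken at postnatal day 21. There were 28 libraries of 1 cell each, S1 to S28, and 4 libraries of 10 cells each, P1 to P4. No strain, genotype, sort, treatment or animal was named, so the 28 cells are 1 sample of cells, differences between cells carry no p-value, and nothing says whether the 4 pools came from separate animals. In a pool, fewer cells of a type and less RNA per cell cannot be told apart.

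Levels are FPKM, fragment counts scaled to the length of the transcript and to the mapped fragments of the library, so that genes can be set side by side. A gene was called found in a library at FPKM of at least 1. A step worth 1 fragment could be read in 20 of the 32 libraries and put their depth at about 6240000 to 38500000 fragments. At those depths, FPKM of 1 stands for about 14.1 to 86.8 fragments of Sox2. The 20 libraries were S1 to S18, S20 and S22, so the range covers no cell of S23 to S28 and no pool. Single cells had 2107 to 10169 genes found and pools 10478 to 12870. Intervals below are exact Clopper-Pearson 95% intervals and cover counting error only.

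Cells were described by the marker list with the highest mean level, and no list holds a Sox gene. Endothelial markers led 8 cells (S1, S2, S3, S6, S7, S8, S16 and S17), each with 9 to 12 of 12 markers. Oligodendrocyte markers led S4, S12 and S13 with 10 of 11, astrocyte markers led S11 and S14 with 12 of 12, and ependymal markers led S9, S10 and S15 with 9 to 11 of 12. Choroid plexus markers led S5 with 9 of 10. Microglial markers led S18 to S21 with 11 or 12 of 12, and neuroblast markers led S22 to S28 with 10 to 12 of 12. S21 stood between both, with a microglial mean of 5.20 and a neuroblast mean of 4.67 in log2(FPKM + 1). S3 also held 10 of 12 microglial markers.

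Cells S18 to S22 and cells S23 to S28 form 2 library sets with a shared trait that touches several Sox results. Where a gene reached 500 FPKM in a single cell of a set and no other cell of it came to 5% of that level, 98.7% and 97.6% of the remaining values were above 0, against 15.1% among S1 to S17. The median of those low values above 0 was 0.343% and 0.292% of the highest. All cells led by microglial or neuroblast markers lie in these sets, so library set and leading list cannot be told apart there. Cell counts of the 10 genes, and the ratios of the neuroblast-marker cells, are also given under a limit, chosen with earlier results known, under which a value is put at 0 if it falls short of 2% of the peak level of that gene within its set.

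Of the 10 Sox genes, 9 were found in at least 1 cell, and the exception was Sox3. The share of all 38740 symbols found in at least 1 cell was not worked out. This count, and the like counts of further Sox and partner genes below, thus have no share to be set against. Sox2 was found in 18 cells (64.3%, interval 44.1% to 81.4%), Sox9 in 12 (42.9%, 24.5% to 62.8%), Sox4 in 11 (39.3%, 21.5% to 59.4%) and Sox5 in 7 (25%, 10.7% to 44.9%). Sox8 and Sox17 were each found in 5 cells (17.9%, 6.06% to 36.9%), Sox10 and Sox18 each in 3 (10.7%, 2.27% to 28.2%) and Sox11 in 2 (7.14%, 0.877% to 23.5%). A cell held 0 to 4 of the 10 genes, and S6, S17 and S20 held none, of which S6 and S17 had Sox7, described below. The 66 finds of a gene in a cell became 54 under the limit: Sox2 then had 13 cells, Sox5 had 2, Sox9 had 11 and Sox11 had 1, while the counts of Sox4, Sox8, Sox10, Sox17 and Sox18 stayed as they were.

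**Figure D1:**
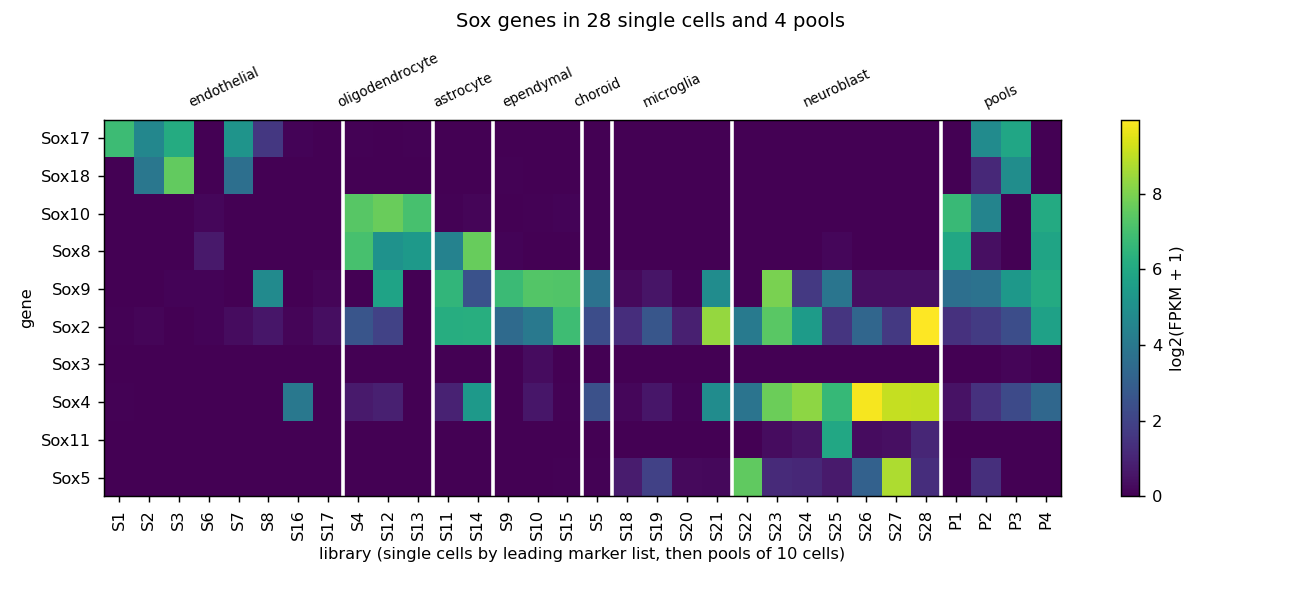
Level of the 10 Sox genes as log2(FPKM + 1), colour scale on the right, in each library (columns: single cells ordered by leading marker list, then 4 pools). Among the single cells, Sox17 and Sox18 reach FPKM of 1 in 5 and 3 of the 8 cells of the endothelial block and in no other block, and Sox10 in the oligodendrocyte block alone, and Sox4 is at 13.2 FPKM or more in all 7 cells of the neuroblast block.

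Mean levels over the 28 cells ran from 96.2 FPKM for Sox4 and 67.1 for Sox2, through 32.4 for Sox9, 22.4 for Sox5, 17.9 for Sox10 and 15.2 for Sox8, to 8.70 for Sox17, 7.69 for Sox18 and 2.28 for Sox11. This order rests on few cells. The single highest cell held 96.3% of the summed FPKM of Sox11, 87.9% of that of Sox18, 68.2% of that of Sox5 and 52.9% of that of Sox2. For Sox9 and Sox4 that share was 27.5% and 33.2%.

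Promoter sequence is shown for Sox2, the most widely found of the genes, and for Sox4 and Sox11, the SoxC pair of the cells led by neuroblast markers. Each line is the 250 bases before the RefSeq start of the gene (GRCm38.p6), at chr3:34649745-34649994 on the plus strand for Sox2, chr13:28953700-28953949 on the minus strand for Sox4 and chr12:27342719-27342968 on the minus strand for Sox11. Capitals mark the letters CCAAT or their reverse complement ATTGG.
Sox2: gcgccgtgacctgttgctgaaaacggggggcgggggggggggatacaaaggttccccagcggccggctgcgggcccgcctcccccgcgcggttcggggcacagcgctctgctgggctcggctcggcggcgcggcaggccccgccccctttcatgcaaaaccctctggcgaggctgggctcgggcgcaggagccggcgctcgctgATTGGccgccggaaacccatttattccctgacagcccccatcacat
Sox4: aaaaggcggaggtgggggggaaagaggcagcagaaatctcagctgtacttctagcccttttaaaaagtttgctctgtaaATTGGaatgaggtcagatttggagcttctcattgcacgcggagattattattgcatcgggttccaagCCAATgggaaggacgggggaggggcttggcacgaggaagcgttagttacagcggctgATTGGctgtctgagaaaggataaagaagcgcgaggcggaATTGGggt
Sox11: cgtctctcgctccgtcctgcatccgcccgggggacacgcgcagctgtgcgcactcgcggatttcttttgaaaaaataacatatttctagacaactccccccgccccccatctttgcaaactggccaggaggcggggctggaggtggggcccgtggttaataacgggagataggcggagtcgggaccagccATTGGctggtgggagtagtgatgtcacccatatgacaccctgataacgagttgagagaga
CCAAT, searched on both strands, stands 4 times in the Sox4 window and 1 time each in those of Sox2 and Sox11; 33.8% of 32851 promoter windows of the same length hold it. The Sox2 window is 72% G and C with 27 CpG, a count reached by 8.56% of all windows. The Sox4 window is 50.8% G and C with 11 CpG, and the Sox11 window 58% with 17. ACAAT, a core of the sequence that Sox proteins bind, stands in none of these 3 windows and in 27.7% of all, and TATAAA in none of the 3 and in 12.4% of all. Other forms of the Sox core were not searched, so the windows may still hold such a form. GGAA, the core of sites for Ets factors, stands 3 times in the Sox2 window and 6 times in that of Sox4, and 93.4% of windows hold it. CANNTG, the E-box, stands 1 time in the Sox4 window and 2 times in that of Sox11, and 66.2% of windows hold it. CCAAT was searched after the sequences had been read, and a match is only a run of letters. Of the 10 genes, 5 had a window in the RefSeq table. The windows of Sox5 and Sox8, not shown, hold CCAAT 0 times, and that of Sox5 holds ACAAT 1 time.

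The SoxF genes were found in cells led by endothelial markers and in no other cell. Sox17 (chromosome 1, 4490928 to 4496413, GRCm38), a factor known from arterial endothelium, stood at 113.9 FPKM in S1, 69.2 in S3, 34.4 in S7, 23.7 in S2 and 2.07 in S8, and at most at 0.0735 in S6, S16 and S17. Sox18 (chromosome 2, 181669836 to 181671640), a factor of blood and lymph vessels, stood at 189 FPKM in S3, 14.6 in S2 and 11.3 in S7 and was listed at 0 in the other 5 of these cells. In the 20 cells led by other lists Sox17 reached 0.0533 FPKM and Sox18 0.0462. Each Sox18 cell was thus also a Sox17 cell, and the groups do not overlap for the cells where the genes were found.

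Set against the whole table, such confinement was uncommon for Sox17 and less so for Sox18. Of 1263 genes found in exactly 5 cells, as Sox17 was, 3.09% had all cells led by the same list. Of 1582 genes found in exactly 3 cells, as Sox18 and Sox10 were, 14.2% did. The log2 ratio of mean FPKM + 1 in the 8 cells over the other 20 was 4.97 for Sox17 and 4.80 for Sox18, and 11.9% of the 15369 genes with a ratio reached 2. Without S3 the Sox18 ratio was 2.23, and by means of log2(FPKM + 1) it was 1.89, under 2, and without S1 that of Sox17 was 4.28.

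Sox7, the third SoxF gene and one of 10 further family members looked at beside these, filled the cells that Sox18 did not. Sox7 stood at 465 FPKM in S17, 173 in S1, 63.1 in S6, 52.4 in S8 and 39.4 in S16, and at 0.267, 0.0616 and 0 in S2, S3 and S7. So, at FPKM of at least 1, 5 of the 8 cells had Sox7, the other 3 had Sox18, and no cell had both. How often other pairs of genes split these 8 cells in this way was not worked out. Sox17 was found with Sox7 in S1 and S8 and with Sox18 in S2, S3 and S7. Each of the 8 cells had at least 1 SoxF gene (28.6% of all cells, 13.2% to 48.7%), and the sum of the 3 genes ran from 38.5 FPKM in S2 to 465 in S17.

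**Figure D2:**
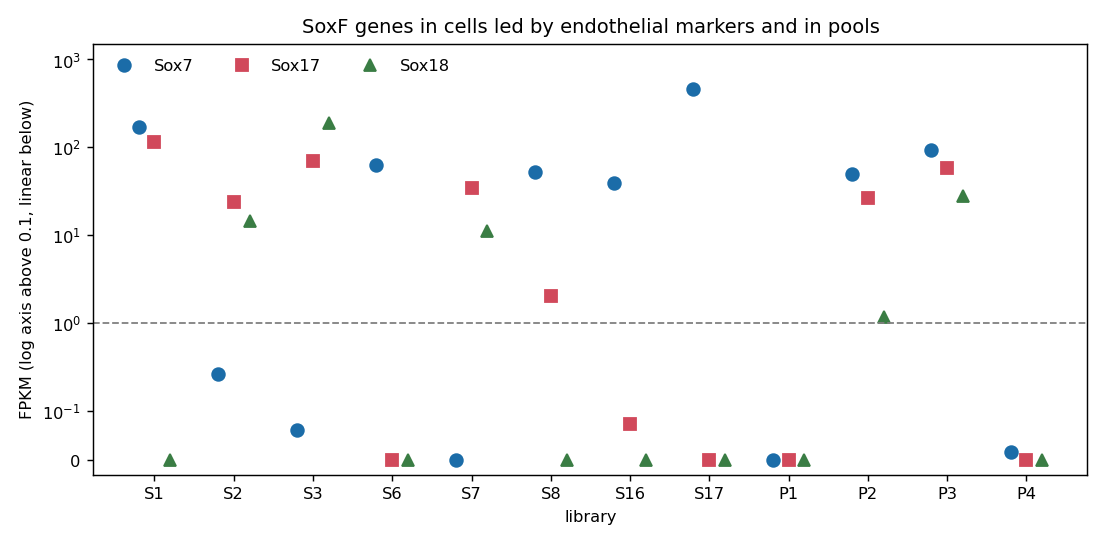
FPKM (log axis above 0.1, linear below; dashed line at 1) of Sox7, Sox17 and Sox18 in the 8 cells led by endothelial markers and the 4 pools, 1 point per gene and library. Sox7 is above the line in 5 cells and Sox18 in the other 3, while P2 and P3 hold all 3 genes.

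Of 3 vessel genes named with the SoxF factors, Hey1 and Dll4 had overlapping ranges in the Sox7 and the Sox18 cells, and Nr2f2 did not. Hey1, a Notch target of arteries, stood at 28.8, 10.1 and 5.38 FPKM in the Sox18 cells S3, S2 and S7, and Dll4, an arterial Notch ligand, at 74.9, 7.47 and 1.98. Nr2f2, a factor of venous identity, was under 1 FPKM in all 3 of them. Its highest value there, 0.377 in S2, lay just below the lowest of the Sox7 cells, 0.426 in S17. Among the 5 Sox7 cells Nr2f2 stood at 77.2 FPKM in S1, 21.7 in S16 and 2.49 in S6 and stood at 0.906 in S8 and 0.426 in S17. Dll4 was found in 1 of these 5, S17, at 40.9 FPKM. Hey1 stood at 357 FPKM in S8 and 94.96 in S17 and at most 0.561 in S1, S6 and S16. Within the 8 cells, then, none of the 3 with Nr2f2 had Hey1 found, and all 5 without Nr2f2 did, a split picked out after the values were seen. Erg, an Ets factor of endothelium, was found in 7 of the 8 cells at 7.19 to 86.1 FPKM and listed at 0 in S1. Of further factors looked at, Ets1 was found in 6 of the 8 cells, Fli1 in 5, and Tal1 and Mef2c in 1 each. Among the other 20 cells Ets1 was found in 2 and Mef2c in 3, and Erg, Fli1 and Tal1 in none.

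The SoxE genes divided the glial cells differently. Sox10 (chromosome 15, 79154913 to 79164490), which drives the myelinating stages of oligodendrocytes, stood at 203 FPKM in S12, 165 in S4 and 133 in S13, the 3 cells led by oligodendrocyte markers. No other cell went above 0.128 FPKM. The log2 ratio of these 3 cells over the other 25 was 7.37, with 7.21 to 7.51 when any 1 cell was left out, and 10.9% of genes reached 2 in that comparison.

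Sox8 (chromosome 17, 25565892 to 25570686), a relative of Sox10 that is expressed in both glial lineages, had a wider range. It stood at 133, 32.8 and 41.1 FPKM in S4, S12 and S13, and at 197 and 20.5 FPKM in S14 and S11, the cells led by astrocyte markers. Other cells had at most 0.614 FPKM. The 2 astrocyte-marker cells, at 197 and 20.5, spanned the whole range of the 3 oligodendrocyte-marker cells, so the levels of these groups overlap. S14 also held 6 of 11 oligodendrocyte markers at a mean of 2.501 in log2(FPKM + 1), and S11 held Sox8 at the lowest of the 5 values; the part of these markers in the result was not tested. The log2 ratio was 2.85 for the oligodendrocyte-marker cells and 3.61 for the astrocyte-marker cells, which 12% of genes reached at 2 or more in the latter comparison; without S4 the former was 1.96 and without S14 it was 5.21.

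Olig1, Olig2 and Myrf, factors of the oligodendrocyte lineage, followed the same cells. Olig1 was found in exactly the 5 Sox8 cells, at 366, 272 and 283 FPKM in S4, S12 and S13 and at 2.43 and 4.43 in S11 and S14. Olig2 was found in the 3 Sox10 cells alone, at 110, 9.44 and 6.03 FPKM in S4, S12 and S13. Myrf was found in those 3 cells at 14.03 to 33.5 FPKM and in S14 at 1.83.

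Sox9 (chromosome 11, 112782224 to 112787760), known from gliogenesis, astrocytes and ependymal cells, was spread over more kinds of cells than Sox8 or Sox10. In the cells led by ependymal markers it stood at 157 FPKM in S10, 153 in S15 and 110 in S9. The cells led by astrocyte markers had 94.2 FPKM in S11 and 4.68 in S14, and the choroid plexus cell S5 had 12.5. The 3 ependymal-marker cells were thus above both astrocyte-marker cells, and their log2 ratio over the other 25 cells was 2.79, a size of 2 being reached by 13.6% of genes. Without S23 it was 3.70.

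Sox9 was also found in 6 cells led by other lists. It stood at 53.9 FPKM in S12, which also held 6 of 12 astrocyte markers at a mean of 2.61 in log2(FPKM + 1), and at 26.2 FPKM in S8, which held 0 of 12. Its highest value of all, 249 FPKM, was in S23, a cell led by neuroblast markers with 0 of 12 astrocyte markers found. S21 had 27.9, S25 had 13.6 and S24 had 2.11 FPKM, the last being 0.849% of the value in S23 and at 0 under the limit. All 3 SoxE genes were found together in S12 only.

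**Figure D3:**
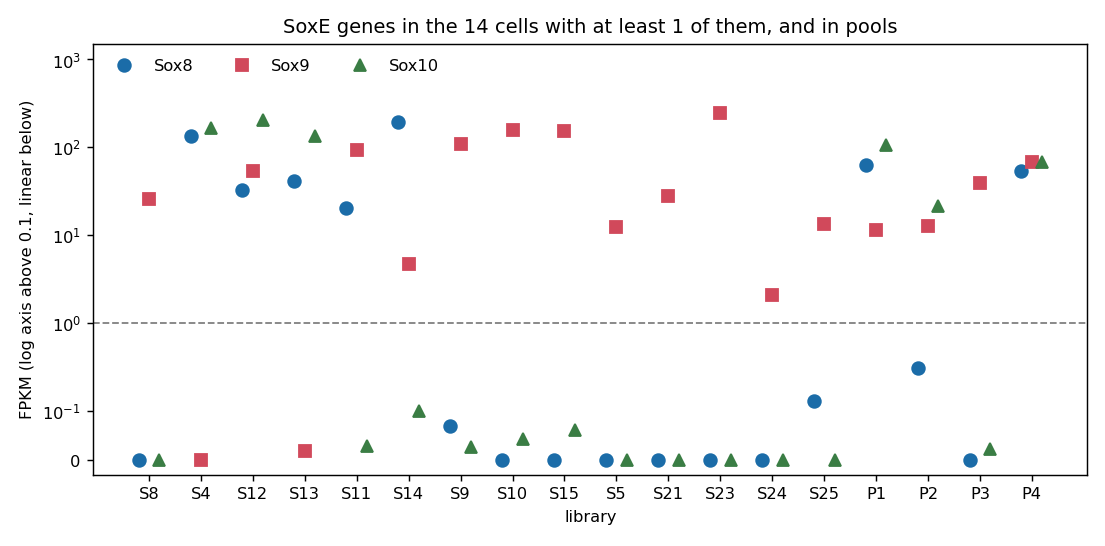
FPKM (log axis above 0.1, linear below; dashed line at 1) of Sox8, Sox9 and Sox10 in the 14 cells with at least 1 of them and in the 4 pools, 1 point per gene and library. Sox10 is above the line in S4, S12 and S13, Sox8 in these and in S11 and S14, and Sox9 in 12 cells.

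Sox2 (chromosome 3, 34650005 to 34652461), a factor that keeps neural stem cells undifferentiated, was found in every cell led by astrocyte, ependymal, choroid plexus or neuroblast markers and in none of the 8 led by endothelial markers. It stood at 74.6 and 72.5 FPKM in S14 and S11, at 116, 15.2 and 9.88 in S15, S10 and S9, and at 4.10 in S5. In the cells led by oligodendrocyte markers it stood at 5.15 in S4 and 2.89 in S12 and was listed at 0 in S13. The 8 endothelial-marker cells had at most 0.509 FPKM.

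The highest Sox2 values lay in the library sets. S28 had 994 FPKM, S21 334 and S23 168, followed by 43.4 in S24 and 15.9 in S22. S26, S27 and S25 had 8.85, 2.18 and 1.92, and S18, S19 and S20 had 1.48, 5.41 and 0.855. Of these, S18, S19, S20, S25, S26 and S27 were at 0.194% to 1.62% of the highest value of their set, and all were at 0 under the limit. S28, S21 and S23, the 3 cells with most Sox2, had 0 of 10 neural stem cell markers found, as had all 11 cells of the sets. The ratio of the 7 neuroblast-marker cells over the rest was 2.49 on the log2 scale, past the size of 2 that 14% of genes reached. It was 0.38 without S28 and 3.43 without S21. Under the limit, where S21 counts as led by neuroblast markers, it was 3.60.

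Sox3 (chromosome X, 60891370 to 60893430), a close relative of Sox2 in neural progenitors, was not found in any library. Its highest values were 0.258 FPKM in S10 and 0.0966 in P3. A count of 0 of 28 cells allows a share of up to 10.7% when 3 cells are taken as the bound, and up to 12.3% by the exact interval. Sox1, the third SoxB1 gene, was found in 8 cells, all of which also had Sox2, at 1.34 to 136 FPKM; under the limit they shared 5 cells.

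Sox4 (chromosome 13, 28948919 to 28953713), a SoxC factor of neuronal differentiation, had the highest mean of the 10 genes and was found in all 7 cells led by neuroblast markers. It stood at 895 FPKM in S26, 545 in S27, 530 in S28, 310 in S24, 208 in S23, 99.8 in S25 and 13.2 in S22. In the other 21 cells it was found in S14 at 40.5 FPKM, S21 at 28.0, S16 at 14.7 and S5 at 4.58. S22, of the set S18 to S22, thus lay among these, while the 6 cells of the set S23 to S28 lay above every other cell. The log2 ratio of the 7 cells over the other 21 was 6.12, with a range of 5.74 to 6.71 on leaving out 1 cell at a time. It was 6.31 under the limit, where S21 counts as led by neuroblast markers, and 6.30 with S21 moved and no limit. Within the sets every Sox4 find was at 11.2% or more of the set's highest value, so that the limit left all 11.

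Sox11 (chromosome 12, 27340697 to 27342709), the SoxC partner of Sox4, stood at 61.4 FPKM in S25 and at 1.11 in S28. S23, S24, S26 and S27 had 0.247, 0.453, 0.254 and 0.322 FPKM, and the gene was listed at 0 in the other 22 cells and in all pools. S28, at 1.81% of S25, was at 0 under the limit, which left 1 cell. Of genes found in exactly 2 cells, 28.5% had both led by the same list. The interval that the authors' table gives for Sox11 spans 2013 bases, against 8311 for the gene in GENCODE M21, and leaves out 6433 bases at the 3′ end; the coding sequence lies inside it. The share covered, 22.6%, is one that 4.54% of 21150 protein-coding genes have or fall below. The other 9 genes had 85.4% to 100% of their GENCODE span in the table. The part of this interval in the low Sox11 values was not tested.

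Sox5 (chromosome 6, 143828425 to 144781977), a SoxD factor known from developing neurons, was high in 2 cells, with 429 FPKM in S27 and 183 in S22. S26, S19, S28, S23 and S24 had 7.57, 2.83, 1.46, 1.26 and 1.17 FPKM, all at 1.77% or less of the highest value of their set. Under the limit S22 and S27 alone were left, and no cell of S1 to S17 had more than 0.0406 FPKM. The log2 ratio of the neuroblast-marker cells was 6.25, with 4.82 without S27. It was 6.27 under the limit, where S21 counts as led by neuroblast markers, and 6.05 with S21 moved and no limit. Of the other SoxD genes, Sox13 was found in S8, S3, S7 and S5 at 102, 35.8, 31.7 and 7.74 FPKM, and Sox6 in S15, S27, S10, S9 and S13 at 63.7, 27.6, 6.65, 6.11 and 5.60.

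**Figure D4:**
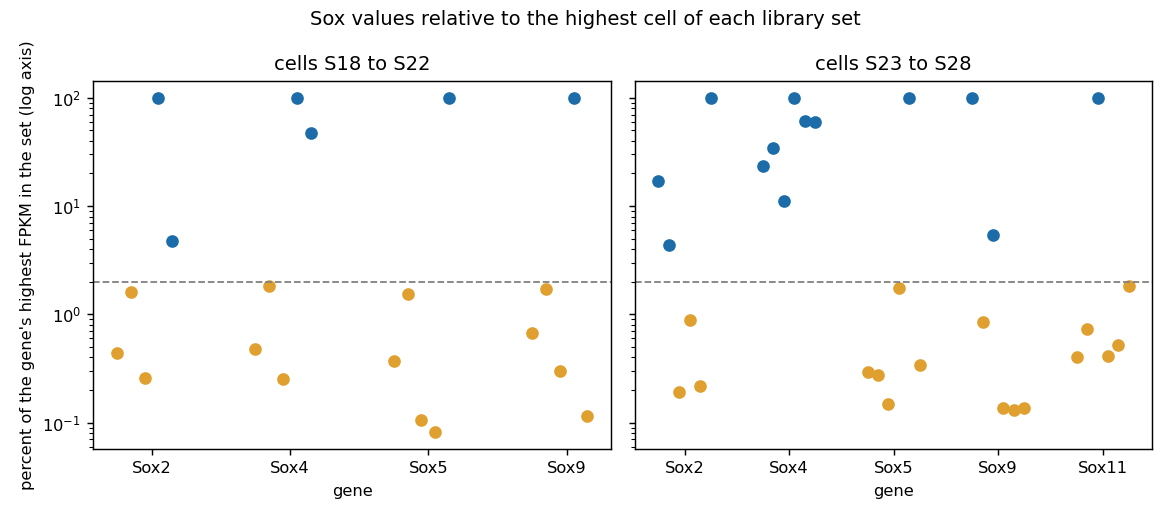
Values above 0 of Sox2, Sox4, Sox5, Sox9 and Sox11 in cells S18 to S22 (left) and S23 to S28 (right) as percent of the gene's highest FPKM in that set (log axis), 1 point per cell; the dashed line is at 2%, with points above it in blue and below it in orange. Sox4 has points between 11.2% and 60.9% in the right panel, while Sox5 and Sox11 have only their highest cell above the line.

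Pairs of Sox genes found in the same cell followed these groups. Sox2 and Sox9 shared 11 cells (9 under the limit), Sox2 and Sox4 shared 10 (7), and Sox8 and Sox10 shared 3, as did Sox17 and Sox18. Over the 28 cells, Pearson's r of log2(FPKM + 1) was 0.75 for Sox17 and Sox18, 0.72 for Sox8 and Sox10, 0.52 for Sox2 and Sox4 (0.39 under the limit) and 0.50 for Sox2 and Sox9 (0.50); these are descriptions, since the cells share their source and many values are 0. Among S1 to S17 alone r was 0.73 for Sox2 and Sox9 and 0.33 for Sox2 and Sox4. Sox17 and Sox18 shared no cell with Sox2, Sox4, Sox5, Sox8 or Sox10, except that Sox9 was found beside Sox17 in S8.

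The protein-coding genes whose pattern over the 28 cells was most like each Sox gene were named by r of log2(FPKM + 1) among 10156 genes found in at least 3 cells, with values as deposited. For Sox4 these were Dlx1 (0.87), Dcx (0.86), Dpysl3 (0.86), Gad2 (0.84) and Mex3a (0.83); Dlx1 and Gad2 are genes of inhibitory neurons and Dcx is a microtubule protein of migrating neuroblasts, and these 3 are also on the neuroblast marker list. For Sox5 they were Nrxn3 (0.98), again on that list, Robo2 (0.92), Tox3, Mycn (both 0.87) and Apba3 (0.86). Under the limit Sox5 was left in 2 cells, S22 and S27, fewer than the 3 needed, so no such list was made there. These r values of Sox5 thus include the low values described for the library sets. For Sox2 they were Ube2b (0.79), Mtss1l (0.73), Cks2 (0.72), Hn1 (0.72) and Celf4 (0.71). Among S1 to S17 the Sox2 list was instead Atp1b2 (0.95), Ntrk2 (0.93), Lgr4 (0.93), Gpr37l1 (0.92) and Mlc1 (0.91), genes of which Mlc1 is a known astrocyte marker.

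For Sox9 the nearest were Col9a3 (0.76), Slc39a9, Hspa4l, Fundc1 and Ccar2 (each 0.75), and among S1 to S17 Pla2g7 (0.93) led. For Sox8 they were Slc6a9, Omg and Bpgm (each 0.94), Asrgl1 and Map6d1 (each 0.92). Sox17 had Tmed9 (0.89), AU021092 (0.81), Ephb4 (0.80), Gm694 (0.80) and N4bp3 (0.78), of which Ephb4 is a receptor of venous endothelium. Sox18 had Tbxa2r (0.94), Samd9l, Cav2 (both 0.91), Cerk (0.87) and 9930111J21Rik1 (0.86). For Sox10 the nearest, Smco3, Cdk18, Fah, Tmeff2 and Rce1, were each found in 3 cells with r of 0.999, a value that any gene confined to the same cells comes close to.

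Pools of 10 cells held 4 to 7 of the 10 genes, and they differed in kind. Sox8 and Sox10 stood at 62.4 and 106 FPKM in P1 and at 54.6 and 67.6 in P4, the 2 pools led by oligodendrocyte markers. Sox17 and Sox18 stood at 58.8 and 28.2 FPKM in P3 and at 26.8 and 1.20 in P2, the pools led by endothelial markers, and were listed at 0 in P1 and P4. P2 also held 9 of 11 oligodendrocyte markers and had Sox10 at 21.6 FPKM, but Sox8 at 0.314, whereas the 3 single cells with Sox10 each had at least 32.8 FPKM of Sox8. P3 had Sox10 at 0.0227 and Sox8 listed at 0. Sox7 went with Sox17, at 93.0 FPKM in P3 and 49.4 in P2, and was 0.0173 in P4 and listed at 0 in P1.

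Sox2 and Sox9 were found in all 4 pools, and Sox4, like Sox10, in 3. Sox9 stood at 67.6 FPKM in P4, 39.1 in P3, 12.6 in P2 and 11.4 in P1. Sox2 stood at 51.1 in P4 and at 4.17, 2.32 and 1.64 in P3, P2 and P1. P4 held 12 of 12 astrocyte and 12 of 12 ependymal markers. It also held 11 of 11 oligodendrocyte, 10 of 10 choroid plexus and 9 of 10 neural stem cell markers. Sox4 stood at 8.95, 3.70, 1.69 and 0.396 FPKM in P4, P3, P2 and P1. Sox4 in every pool was below its level in the 7 neuroblast-marker cells, although P4 at 8.95 FPKM was close to S22 at 13.2; S23 to S28 had 99.8 or more. The pools held 2 to 4 of 12 neuroblast markers at means of 0.631 to 1.497 in log2(FPKM + 1).

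**Figure D5:**
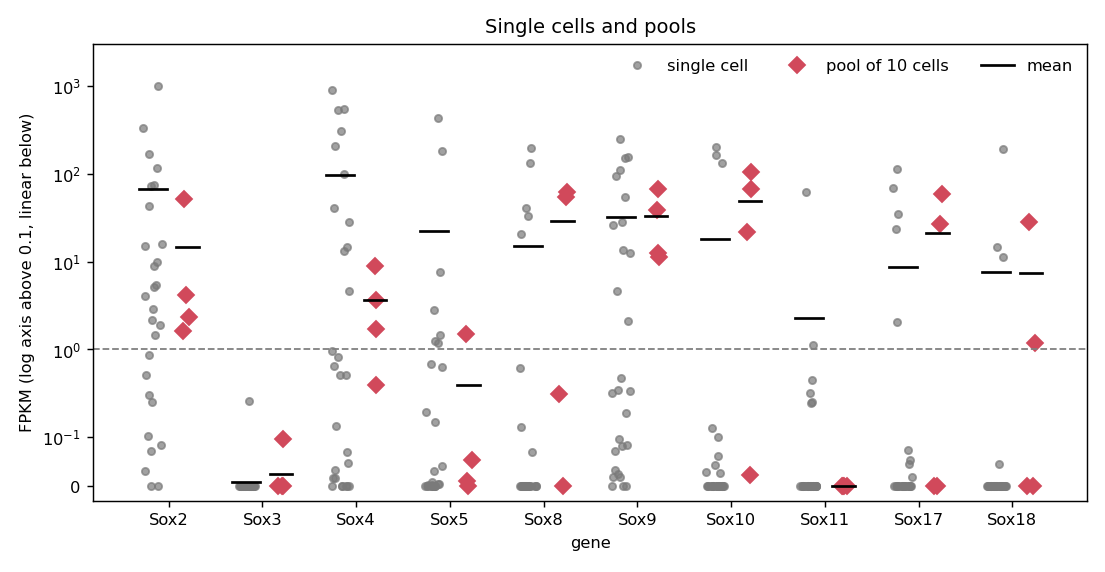
FPKM (log axis above 0.1, linear below; dashed line at 1) of the 10 Sox genes in the 28 single cells (grey dots) and the 4 pools (red diamonds), with black bars at the group means. The bars of Sox9 lie at 32.4 and 32.7, those of Sox4 at 96.2 and 3.68.

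By log2 of the ratio of mean FPKM + 1 in pools over cells, 3 of 8 Sox genes were at -2 or less, Sox3 being left out because it was under 1 FPKM in all libraries and Sox11 because all pools list it at 0: Sox4 at -4.37, Sox5 at -4.07 and Sox2 at -2.11. The Sox2 value turned on single pools: it was -4.20 without P4, and -1.75, -1.77 and -1.81 without P1, P2 and P3, no longer at -2. On the side of the cells, S28 alone held 52.9% of the summed FPKM of Sox2, and the ratio without S28 was not worked out. Without P3, Sox18 went to -2.64. Under the 2% limit the 3 ratios were -4.37, -4.03 and -2.09. Over all 18613 genes with a ratio, 4.74% were at -2 or less and 2.09% at 2 or more, and no Sox gene was at 2 or more. Sox10 stood at 1.40, Sox17 at 1.21, Sox8 at 0.91, Sox9 at 0.01 and Sox18 at -0.06. The median over the 8 genes was -0.02 (SD over pools 0.898, n = 4), against 0.07 over all genes. The SD over pools of the single ratios was 3.29 for Sox8, 3.12 for Sox17, 3.02 for Sox10 and 2.31 for Sox18, and 1.21 for Sox9, each larger than the size of the gene's ratio. It was 1.98 for Sox2, 1.20 for Sox4 and 0.65 for Sox5, each smaller. This SD sets each pool against the fixed mean of the cells, so it leaves out the spread between cells.

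The 3 low ratios rest on cells S18 to S28. These are the library sets and also hold every cell led by microglial or neuroblast markers, so the part of each cannot be told apart. Against S1 to S17 alone no Sox gene was at -2 or less, Sox4 was at -0.00 and Sox2 at -0.25, and Sox5 turned to 0.47. Sox5 in the pools came from P2, which had 1.52 FPKM, while P1, P3 and P4 had at most 0.0544.

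Of the 10 further Sox genes, 6 were found in at least 1 cell and in at least 1 pool. Sox1 was found in 8 cells, Sox6 and Sox7 in 5 each, Sox13 in 4, Sox21 in 3 and Sox12 in 1. Sox14, Sox15 and Sry were listed at 0 in all 32 libraries, and Sox30 reached 0.0209 FPKM. Sox21, a relative of the SoxB1 genes, stood at 110 FPKM in S15, 53.1 in S11, 28.7 in S26 and 37.6 in P4, and these 3 cells also had Sox1 and Sox2, of which S26 has neither under the limit. None of the 6 had a pool ratio past 2 in either direction.

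Of 20 partner and network genes, all were found in at least 1 cell, in 1 to 22 cells each. Pou3f2, Pou3f3 and Pou3f4 encode POU factors that bind DNA beside Sox2 and the SoxC proteins. Pou3f3 stood at 1064 FPKM in S26 and at 5.15 or more in all 7 neuroblast-marker cells, though its 12 cells became 8 under the limit, Pou3f2 was highest in S25 and S22 at 63.4 and 61.6, and Pou3f4 was found in S11 alone at 100.3. Pax6, a progenitor factor, was highest in S22 at 549 FPKM and S9 at 211. Chd7, a chromatin remodeller that binds Sox2, was highest at 1184 FPKM in S28, the cell that also had most Sox2. Pool ratios of -2 or less were seen for Pou3f3 (-4.33) and Chd7 (-2.40) and ratios of 2 or more for none of the 20. Of all genes with a ratio, 4.74% were at -2 or less. S28 alone held 79.9% of the summed FPKM of Chd7 over the cells, and S26 51.0% of that of Pou3f3. The ratios without these cells were not worked out. Nfia and Nfib, glial partners of Sox9, were found in 21 and 22 cells, Pou3f1 in 2 cells, Nkx2-2 and Tal1 in 1 each, Mef2c in 4, Fli1 in 5 and Ets1 in 8.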

How the data were processed

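Per the submitters' processing notes, the tools were TopHat 1.41 and Cufflinks 2.02 and the build mm9. The values the authors deposited are FPKM, 1 line per gene. Its loci match GRCm38: 96.0% of 39011 lines carry a GENCODE M21 gene ID, and 99.7% of those overlap that gene, so coordinates are given as GRCm38. No source used here gives the annotation release, strand setting or read layout. Lines of 1 symbol were summed, and 27 symbols turned into dates were restored.

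Depth was estimated from the commonest step of FPKM times effective length over 2342 single-exon genes no shorter than 800 bp, taking fragments as 200 bp. Shares have exact Clopper-Pearson 95% limits; for none found, 3 of 28 cells is the upper bound. Ratios are log2 of (mean FPKM + 1), which understates changes of low genes; genes listed at 0 in a whole group got none. Cells were assigned to the highest of 12 marker lists. No doublet was removed. The calculations used Python 3.11.15 and were checked on simulated data. No test was run, because cells are not replicates. Alternatives changed the FPKM that counts as found, the pseudocount, the scaling, the cells and the pools. Every Sox member and list gene was eligible for naming, with the 5 nearest genes per member found in at least 3 cells. Members, lists and markers were chosen with earlier results of these data known. Protein sequences were not used here.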

Additional observations from a re-analysis of the deposited data

Results flagged for a closer look

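Sox5 in the 4 pools stood apart in 1 library. On the log2(FPKM + 1) scale, the gap between P2, at 1.52 FPKM, and the next pool, P1 at 0.0544 FPKM, made up 0.943 of the range over the pools. Chance may set 1 library apart in this way in about 1 in 20 groups, a rate not worked out from these data, and 8 genes were looked at. P1, P3 and P4 lay at or near 0, at 0.0544, 0 and 0.0101 FPKM, so the rate may not hold here.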

How the results depend on the processing

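No paired analysis was possible because the numbers of cells and pools only name libraries and no test was made. The count of 9 Sox genes found in single cells ranged from 7 (S1 to S17 alone) to 10 over 9 alternatives, of which the limits of 1% and 5% were chosen after seeing the data. Pools over cells moved more. The 3 genes at -2 or less became 1 with a pseudocount of 10, 0 by means of log2(FPKM + 1), 0 against S1 to S17, where Sox5 turned from -4.07 to 0.47, and 2 after rescaling (Sox2 -1.46), without P1 and without P2. Without P3 the count was again 3, with Sox18 (-2.64) in and Sox2 (-1.81) out. By means of log2(FPKM + 1), 2 genes were at 2 or more and the median over genes was 1.38, where the median of all genes was 1.03. Leaving out 1 pool gave medians from -0.95 to 0.27 (-0.95 without P3), and rescaling to the same sum moved the median over the Sox genes from -0.02 to 0.39 and that of all genes from 0.07 to 0.25. The cause was not tested. The 9 pairs of gene and leading list at 2 or more ranged from 8 to 9 with 1 cell left out and were 11 by means of log2 values, which lost Sox18 in endothelial-marker cells (1.89). Without S4 and S28 the ratios of Sox8 (1.96) and Sox2 (0.38) fell under 2. Without S9, S11 or S14 a ratio could not be formed, because Sox18 was then at 0 in all other cells or 1 astrocyte-marker cell was left. At 0.1, 5 or any value above 0 FPKM, Sox2 was found in 23, 13 and 26 cells, and with limits of 1% and 5% in 14 and 11. At the same 3 thresholds Sox5 went from 7 to 11, 3 and 19 cells, Sox4 from 11 to 17, 10 and 22, Sox9 from 12 to 17, 10 and 25, and Sox11 from 2 to 6, 1 and 6, and the 66 finds became 95, 52 and 129. Depth is known only roughly, and none of these values separates absence from a missed transcript.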

Other observations

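Sox2ot, a long noncoding RNA whose interval contains the Sox2 gene, was found in 13 cells. It stood at 1462 FPKM in S28, the cell with most Sox2, but also at 222 FPKM in S13, where Sox2 was listed at 0, and at 107 in S12, where Sox2 stood at 2.89. S15, with 116 FPKM of Sox2, had 0.00557 of Sox2ot. Sox2 and Sox2ot were found together in 11 cells, and r of log2(FPKM + 1) was 0.37 over the 28 cells. All 5 cells with Sox8 had Sox2ot, with r of 0.65 for that pair. Pools P1, P2 and P4 had 125, 62.7 and 51.7 FPKM of Sox2ot and P3 had 1.70. Reads of overlapping genes may have been shared out between them, so both levels are uncertain.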
